A study of Homo sapiens with 36 samples.

Results

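Small nucleolar RNA host genes are genes whose introns carry small nucleolar RNAs (snoRNAs). They were followed in ATF4 knockout and wild-type U2OS cells after an engineered eIF2α kinase was switched on. The set held every gene named SNHG plus a number in the deposited tables, and 8 further genes by name: GAS5, ZFAS1, EPB41L4A-AS1, DANCR, TAF1D, RACK1, CCAR1 and MIR17HG. The rule used names only and found 30 of the 57665 genes, of which 28 were among the 19043 genes expressed highly enough to be tested. SNHG22 and SNHG23 were not tested. Their group means were 0.302 to 0.58 CPM (counts scaled to a common library size) for SNHG22 and 0.0908 to 0.144 CPM for SNHG23 in knockout cells untreated, at 8 h and at 24 h, against 0.41 to 0.635 CPM and 0.109 to 0.169 CPM in wild-type cells at those times.

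U2OS is a human osteosarcoma line. All cells, untreated ones included, carried Dmr-PERK, the eIF2α kinase domain of mouse PERK joined to a domain that pairs when a small ligand, the dimerizer AP20187, is added. Knockout cells (labelled ATF4KO) and wild-type cells each received the dimerizer for 2, 4, 8, 16 or 24 h, at a single level whose unit is not stated, or were left untreated and are labelled 0 h. The 12 groups had 3 libraries each, 36 in all, and every test below compared 3 libraries with 3 or contrasts of such groups. Nothing states that the triplicate wells come from independent cultures or that either line is a single clone, so a p-value below reflects variation among wells, which may be technical. No untreated wells at later times are among the samples, so dimerizer and time in the plate cannot be told apart.

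Box C/D snoRNAs guide ribose methylation of ribosomal RNA and box H/ACA snoRNAs guide pseudouridylation. Most of those carried by host genes are released from spliced introns, while the exons of many host genes are joined into an RNA that codes for no known protein. Several such RNAs begin with a terminal oligopyrimidine tract, a C followed by further pyrimidines, which ties translation of an mRNA to growth signals. Some carry short reading frames and are broken down by nonsense-mediated decay when ribosomes translate them. Phosphorylation of eIF2α lowers translation initiation on most mRNAs, and ATF4 is the transcription factor whose own translation then rises.

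In the RefSeq annotation, 29 of the 30 genes were found, 26 of them as long noncoding RNA genes. RefSeq placed 150 snoRNAs or small Cajal body RNAs inside 28 of them, 83 of these in SNHG14 alone. GAS5 held 11, SNHG1 and TAF1D held 8 each, and 11 genes held only C/D snoRNAs against 10 with only H/ACA snoRNAs. MIR17HG held none and carries a microRNA cluster, so it is counted among the host genes by the naming rule alone. The annotated start of the following genes is shown because the leading pyrimidine run is the sequence feature that several members share. Each line runs 5′ to 3′ on the gene's strand with 25 bases before and 20 bases from the RefSeq start (GRCh38.p14), and capitals mark the unbroken pyrimidine run that begins with a C at the start. The line for GAS5 begins at the start of the transcript GAS5-210 (GENCODE 29). That transcript was picked for its leading run, at 6 bases the longest among the 29 GENCODE transcripts of GAS5. The run at the RefSeq start of GAS5 is 0 bases.
SNHG5 (chr6:85678714-85678758, minus strand): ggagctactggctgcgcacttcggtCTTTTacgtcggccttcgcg
ZFAS1 (chr20:49278617-49278661, plus strand): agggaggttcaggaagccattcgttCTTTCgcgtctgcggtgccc
SNHG12 (chr1:28581854-28581898, minus strand): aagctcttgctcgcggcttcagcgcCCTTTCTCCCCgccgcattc
SNHG1 (chr11:62855866-62855910, minus strand): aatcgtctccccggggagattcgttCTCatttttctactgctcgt
SNHG8 (chr4:118278737-118278781, plus strand): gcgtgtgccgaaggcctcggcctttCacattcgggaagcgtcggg
SNHG19 (chr16:2155339-2155383, minus strand): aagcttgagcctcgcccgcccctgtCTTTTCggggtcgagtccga
SNHG18 (chr5:9546175-9546219, plus strand): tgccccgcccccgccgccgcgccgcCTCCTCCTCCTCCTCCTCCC
GAS5 (chr1:173867970-173867989, minus strand): CTTTTCgaggtaggagtcga

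Of the 25 genes with a RefSeq window, 8 began with a run of at least 5 such bases, against 4.04% of 27305 RefSeq windows. These were SNHG5, ZFAS1, SNHG12, SNHG19, SNHG18, SNHG4, RACK1 and TAF1D. The run of SNHG18 was 21 bases, of which 20 are shown. RefSeq starts of GAS5, SNHG1 and SNHG8 fell short of that length, while 6 of the 29 GENCODE transcripts of GAS5 begin with such a run. The motifs CACGTG and TGATGNAA were searched on both strands from 250 bases before to 50 bases after each start, whether or not matches overlap. CACGTG was found in 1 of the 25 members, SNHG7, against 7.43% of all windows, and TGATGNAA in 0 of the 25 against 3.67%.

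Library totals ran from 8608783 to 16265056 counts. The mesenchymal genes VIM, CDH2, SPARC and RUNX2 were expressed in every library, at 21.1 CPM or more in knockout cells and 26.1 CPM or more in wild-type cells. Epithelial EPCAM and CDH1 stayed at 6.03 CPM or less in knockout cells and 8.43 CPM or less in wild-type cells, PTPRC and PECAM1 at 1.33 CPM or less, and CD3E and ALB were at or near 0. ATF4 mRNA was 262 to 277 CPM in untreated knockout libraries and 310 to 325 CPM in untreated wild-type libraries, and a count over the whole gene does not show whether the protein is made. Among pairs of replicates, counts differed by 1.34 to 2.61 times sampling noise (chi-square per degree of freedom), so no library appeared to be deposited more than once.

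Most host genes rose under dimerizer, in ATF4 knockout and wild-type cells alike, and more of the set had risen at 24 h than at 2 h. At 24 h, 22 of the 28 tested genes were higher and 3 lower than in untreated knockout cells (65.4% of all tested genes were called in that comparison, and 32.4% of all tested genes were called as higher). In wild-type cells 21 were higher and 3 lower at 24 h (65.4% of all genes called, and 33.0% of all genes called as higher). The median log2 change of the host genes was 0.92 in knockout cells and 0.68 in wild-type cells, beside -0.03 and -0.02 over all tested genes. A rise of at least 2-fold was found for 13 host genes in knockout cells (6.08% of all genes) and 10 in wild-type cells (6.56%).

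Fewer of the host genes were called at 2, 4 and 8 h, and the numbers at 16 h were close to those at 24 h. Knockout cells had 10 higher and 2 lower host genes at 2 h (18.3% of all genes called), and wild-type cells had 11 and 2 (22.6%). At 4 h, 15 were higher and 5 lower in knockout cells (42.4%), and 14 and 4 in wild-type cells (44.7%). At 8 h, 21 were higher and 2 lower in knockout cells (61.9%), and 18 and 3 in wild-type cells (59.3%). At 16 h, 22 were higher and 3 lower in knockout cells (65.7%), and 20 and 4 in wild-type cells (66.5%). The set's median log2 change over the 5 times was 0.13, 0.31, 0.63, 0.76 and 0.92 in knockout cells and 0.11, 0.31, 0.47, 0.65 and 0.68 in wild-type cells.

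**Figure D1:**
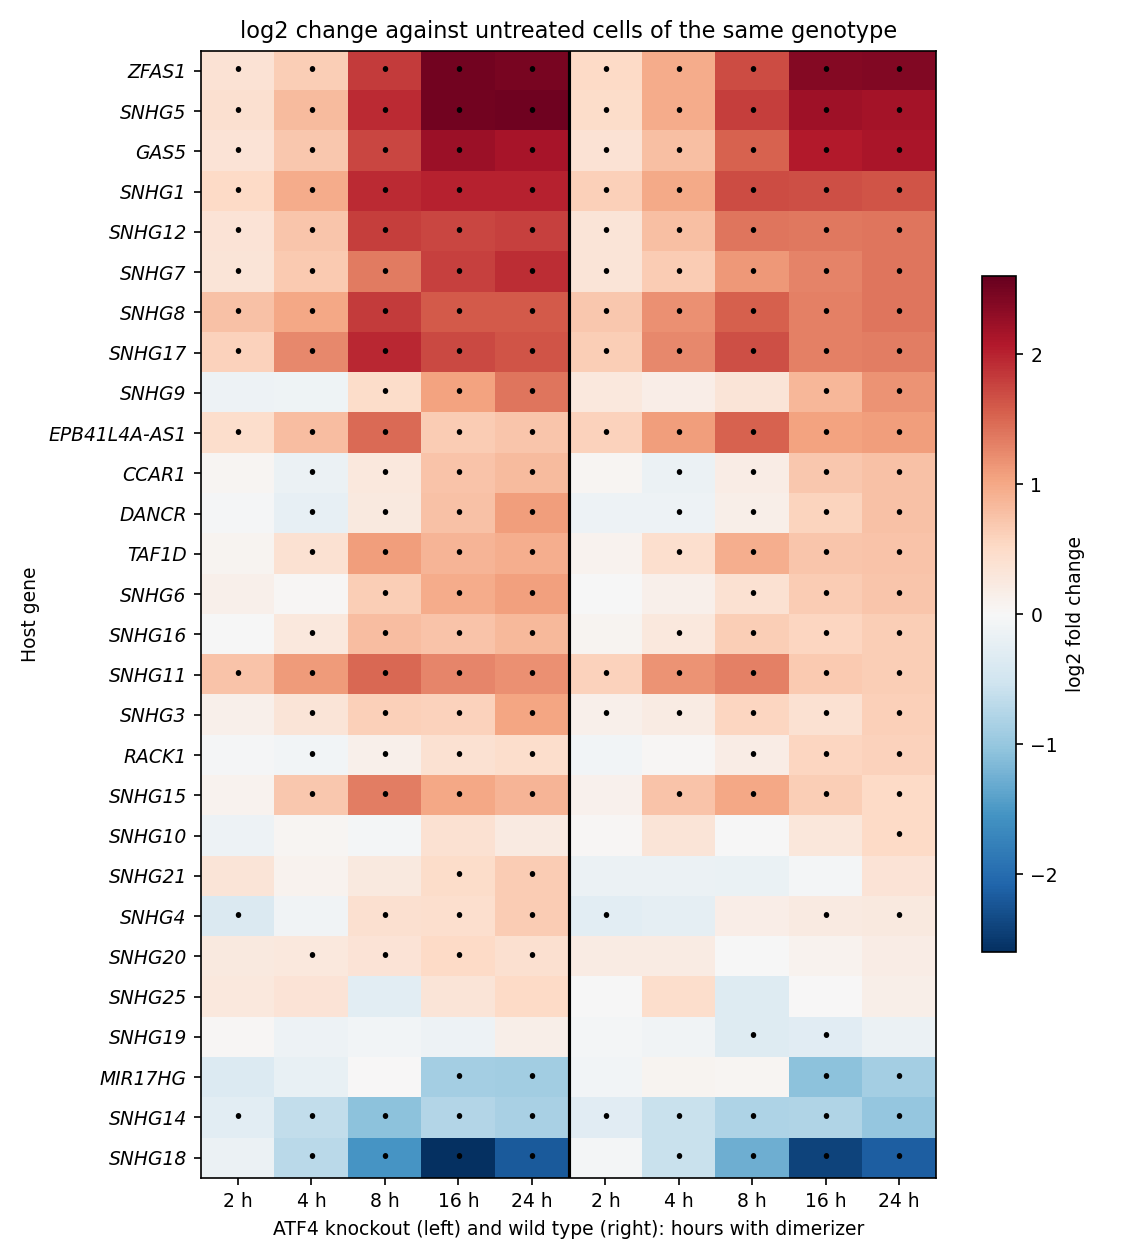
log2 fold change of the 28 tested host genes at 2, 4, 8, 16 and 24 h of dimerizer against untreated cells of the same genotype, knockout in the left 5 columns and wild type in the right 5. Dots mark an edgeR adjusted p under 0.05; genes are ordered by the wild-type change at 24 h, and SNHG5, ZFAS1 and GAS5 are the darkest red rows for each genotype.

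The 10 genes called higher at 2 h in knockout cells were SNHG8, SNHG11, SNHG17, SNHG1, EPB41L4A-AS1, SNHG5, ZFAS1, GAS5, SNHG12 and SNHG7. All 10 were also called in wild-type cells, where SNHG3 was the other one (log2 change 0.13, SE 0.05). The largest 2 h change was that of SNHG8, which carries SNORA24, with 44.2, 45.1 and 42.2 CPM in 2 h knockout libraries against 27.3, 25.3 and 25.3 CPM in untreated ones. In wild-type cells it had 45.1, 47.6 and 54.1 CPM at 2 h against 32.3, 29.4 and 28.1 CPM untreated. No 2 h library overlapped the untreated ones, and the log2 change was 0.77 (SE 0.07, edgeR adjusted p = 2.2e-10) in knockout cells and 0.71 (SE 0.07, edgeR adjusted p = 4.2e-11) in wild-type cells. The SNHG3 call of wild-type cells was lost without untreated library 2 or 3 or without 2 h library 2 or 3 (adjusted p of 0.059 to 0.23), and the SNHG12 calls were lost at the margin, with an adjusted p of 0.05 in knockout cells without 2 h library 2 and of 0.05 in wild-type cells without 2 h library 3.

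GAS5, ZFAS1 and SNHG5 rose the most and were still high at the end of the course. GAS5, a noncoding RNA first known for its accumulation in growth-arrested cells, is on chromosome 1 at 173863900 to 173868882 (GENCODE 29, minus strand). It had 442, 466 and 511 CPM in 24 h knockout libraries against 105, 102 and 113 CPM in untreated ones, and 483, 485 and 482 CPM in 24 h wild-type libraries against 113, 108 and 110.3 CPM in untreated ones. Every 24 h library was above every untreated one by far more than the spread within a group. The log2 change was 2.15 (SE 0.05, edgeR adjusted p = 5.5e-34) in knockout cells, a 4.43-fold rise, and 2.13 (SE 0.04, edgeR adjusted p = 2.8e-34) in wild-type cells, a 4.37-fold rise. Over 0, 2, 4, 8, 16 and 24 h its mean was 107, 137, 175, 354, 497 and 473 CPM in knockout cells and 111, 144, 190, 322, 462 and 483 CPM in wild-type cells, so it climbed at each step up to 16 h.

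ZFAS1, named as the antisense RNA of ZNFX1, is on chromosome 20 (49278178 to 49295738, plus strand) and carries SNORD12, SNORD12B and SNORD12C. It had 245, 264 and 287 CPM in 24 h knockout libraries against 49.6, 46.5 and 47.6 CPM in untreated ones. Wild-type libraries had 236, 231 and 233 CPM at 24 h against 43.7, 45.1 and 43.0 CPM untreated. The groups did not overlap, and the log2 change was 2.47 (SE 0.05, edgeR adjusted p = 2.7e-34) in knockout cells and 2.41 (SE 0.05, edgeR adjusted p = 6.5e-34) in wild-type cells.

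SNHG5, on chromosome 6 (85660950 to 85678748, minus strand), carries the snoRNAs SNORD50A and SNORD50B. Its levels were 104, 113 and 119 CPM in 24 h knockout libraries against 20.9, 16.7 and 20.5 CPM untreated, and 89.4, 79.5 and 87.7 CPM in 24 h wild-type libraries against 19.2, 18.1 and 19.4 CPM untreated. That was the largest rise of the set in knockout cells, a log2 change of 2.53 (SE 0.07, edgeR adjusted p = 5.2e-31), and in wild-type cells it was 2.17 (SE 0.07, edgeR adjusted p = 3e-28). Its 24 h knockout libraries were all above its 24 h wild-type libraries.

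GAS5, ZFAS1 and SNHG5 also rose between 8 and 24 h, when 14 host genes were higher and 8 lower than at 8 h in knockout cells (51.4% of all genes called) and 11 higher and 9 lower in wild-type cells (46.1%). The log2 change over that interval was 0.67 (SE 0.04) for ZFAS1, 0.58 (SE 0.05) for SNHG5 and 0.42 (SE 0.04) for GAS5 in knockout cells, and 0.72 (SE 0.05) for ZFAS1, 0.37 (SE 0.06) for SNHG5 and 0.59 (SE 0.04) for GAS5 in wild-type cells.

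SNHG1, SNHG12 and SNHG7 formed a next group with rises of 3.41 to 4.01-fold in knockout cells and 2.64 to 3.11-fold in wild-type cells at 24 h. SNHG1, the host of 8 C/D snoRNAs including SNORD22, had 210.2, 223 and 239.8 CPM in 24 h knockout libraries against 56.7, 58.2 and 54.0 CPM untreated. Wild-type libraries had 192, 202 and 200.5 CPM at 24 h against 64.4, 63.9 and 63.1 CPM untreated. SNHG1 reached its plateau by 8 h, where its mean was 214 CPM in knockout cells and 206 CPM in wild-type cells. SNHG12 likewise stood at 54.9 CPM in knockout cells and 48.2 CPM in wild-type cells at 8 h, and at 24 h at 54.3 CPM in knockout cells and 48.3 CPM in wild-type cells. SNHG7, which carries SNORA17A and SNORA17B, kept rising: its means at 8 and 24 h were 53.9 and 79.3 CPM in knockout cells and 51.9 and 62.4 CPM in wild-type cells.

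**Figure D2:**
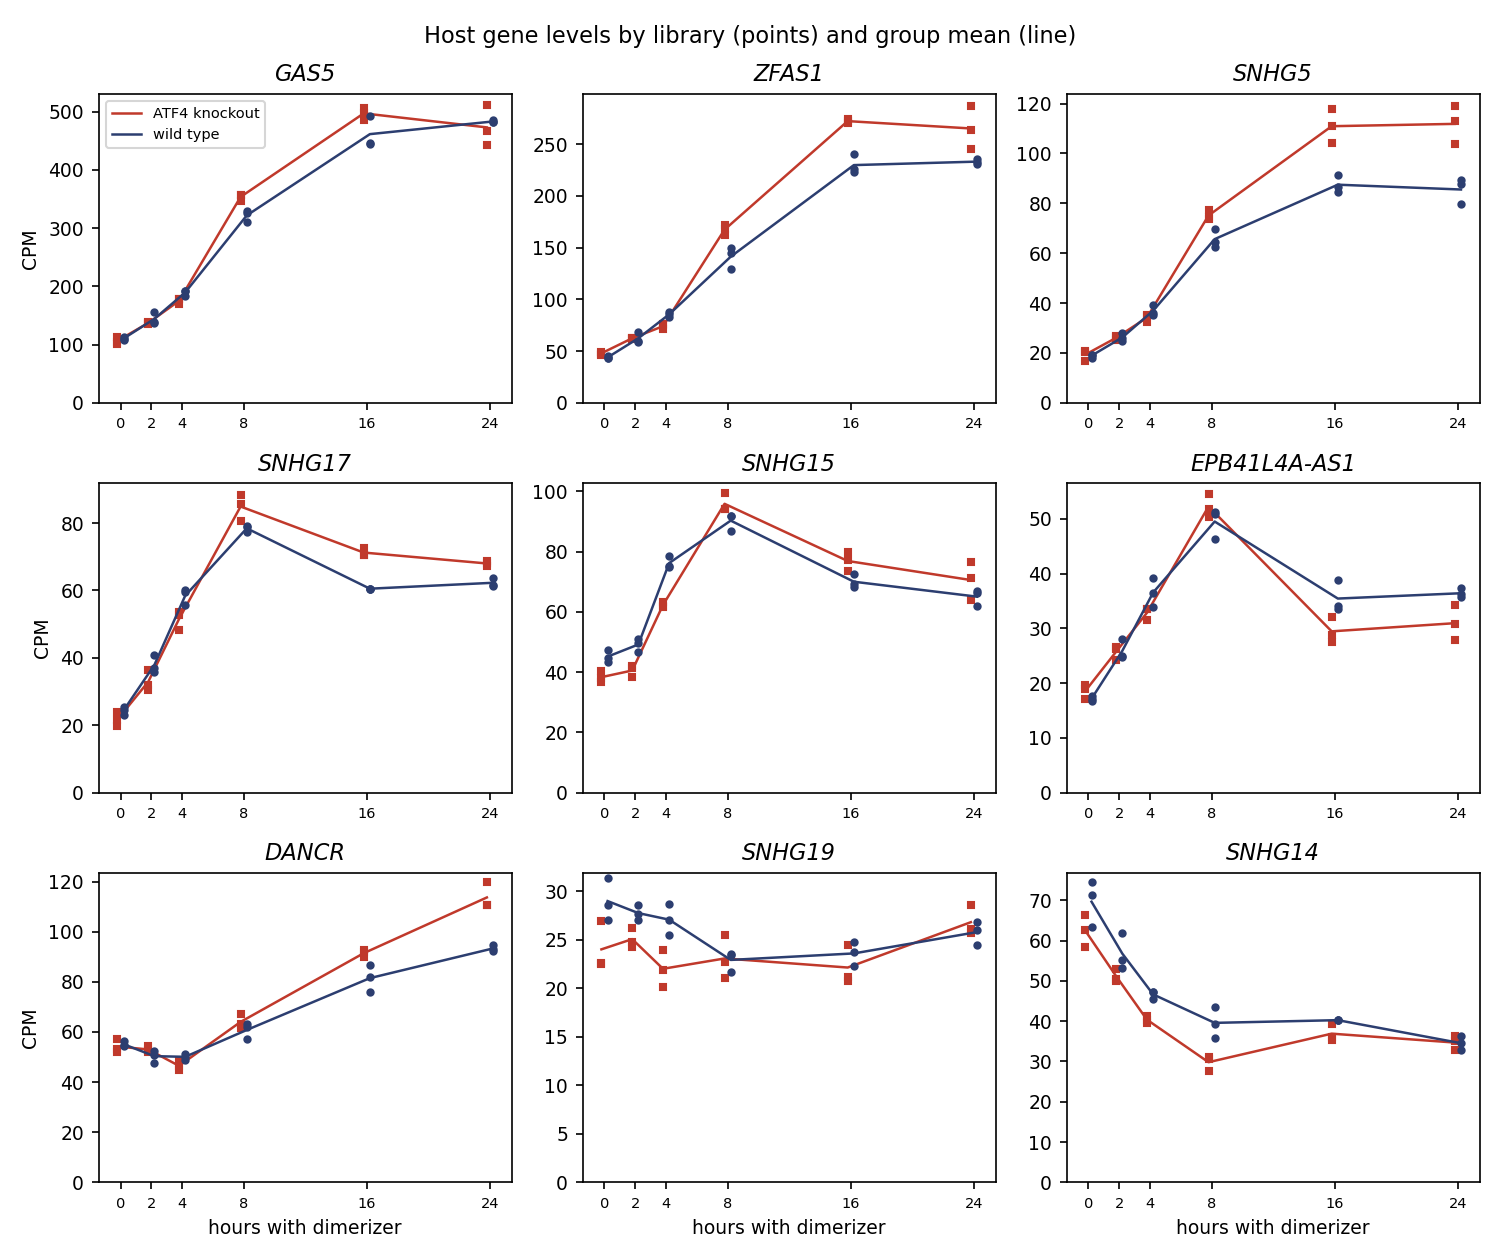
CPM (TMM-scaled) of 9 host genes against hours with dimerizer, each point 1 library, lines joining group means, knockout as red squares and wild type as blue circles. GAS5, ZFAS1 and SNHG5 climb to 16 h and stay high, SNHG17, SNHG15 and EPB41L4A-AS1 peak at 8 h, DANCR rises late and SNHG14 falls. SNHG19 changes little in knockout cells and is lower at 8 and 16 h in wild-type cells.

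Another pattern was a peak at 8 h with lower levels at 24 h. It was called in both genotypes, with a rise from 0 to 8 h and a fall from 8 to 24 h, for SNHG17, SNHG15, SNHG11, SNHG8, EPB41L4A-AS1 and TAF1D. SNHG17, the host of 4 SNORA71 snoRNAs, had 80.6, 88.4 and 85.7 CPM in 8 h knockout libraries against 19.6, 23.9 and 21.6 CPM untreated, and 78.8, 77.3 and 79.2 CPM in 8 h wild-type libraries against 24.6, 23.1 and 25.5 CPM untreated. By 24 h it stood at 68.7, 68.0 and 67.2 CPM in knockout libraries and 61.6, 61.4 and 63.8 CPM in wild-type libraries, below every 8 h library. The change from 8 to 24 h was -0.32 (SE 0.05, edgeR adjusted p = 1.7e-07) in knockout cells and -0.33 (SE 0.05, edgeR adjusted p = 4.2e-07) in wild-type cells on the log2 scale.

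EPB41L4A-AS1, which carries SNORA13, fell back further. It had 54.6, 51.9 and 50.3 CPM in 8 h knockout libraries and 30.8, 27.9 and 34.2 CPM in 24 h ones, against 17.1, 18.96 and 19.6 CPM untreated. Wild-type libraries had 46.4, 51.0 and 51.2 CPM at 8 h and 35.7, 37.3 and 36.3 CPM at 24 h, against 17.1, 17.6 and 16.7 CPM untreated. From 8 to 24 h it fell by 0.75 (SE 0.07, edgeR adjusted p = 4.8e-13) in knockout cells and by 0.45 (SE 0.07, edgeR adjusted p = 5e-07) in wild-type cells on the log2 scale. Since 49.6% of its annotated exon bases overlap EPB41L4A on the other strand, and no source used here states the strand setting of the authors' counting, reads of the pair may not be fully separated.

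The fall after 8 h was -0.43 (SE 0.05) in knockout cells and -0.48 (SE 0.05) in wild-type cells for SNHG15, the host of SNORA9. For SNHG11 it was -0.30 (SE 0.08) in knockout cells and -0.68 (SE 0.09) in wild-type cells. SNHG8 and TAF1D fell least. SNHG8 changed by -0.22 (SE 0.05) in knockout cells and -0.18 (SE 0.06) in wild-type cells, and TAF1D by -0.13 (SE 0.04) in knockout cells and -0.18 (SE 0.04) in wild-type cells. The SNHG8 call in wild-type cells ended without 8 h library 3 (log2 change -0.12, adjusted p = 0.11) or 24 h library 2 (-0.15, adjusted p = 0.053) and in TPM (-0.13, adjusted p of 0.059 to 0.1), and the TAF1D call in knockout cells without 24 h library 1 (-0.08, adjusted p = 0.075).

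TAF1D, RACK1 and CCAR1 are the protein-coding members. TAF1D encodes a subunit of the factor that directs RNA polymerase I to ribosomal DNA promoters, and its introns hold 6 H/ACA and 2 C/D snoRNAs. It stood at 353 ± 4.47 CPM (SD, n = 3) at 8 h in knockout cells against 166 ± 5.87 CPM untreated, and at 331 ± 4.88 CPM in wild-type cells against 173 ± 1.35 CPM untreated. CCAR1 is a transcriptional coactivator that carries SNORD98. RACK1 is a scaffold protein of the small ribosomal subunit that carries SNORD95 and SNORD96A. Both rose later, and less than TAF1D at 8 h. At 24 h the log2 change in wild-type cells was 0.75 for TAF1D, 0.77 for CCAR1 and 0.59 for RACK1.

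CCAR1 was lower at 4 h in both genotypes, by a log2 change of -0.16 (SE 0.04 in each), and higher at 24 h. Its 24 h levels were 198, 201 and 201 CPM in knockout libraries against 106, 116 and 115 CPM untreated, and 195, 189 and 192 CPM in wild-type libraries against 113, 114 and 110.1 CPM untreated. The log2 change was 0.83 (SE 0.04, edgeR adjusted p = 4.2e-22) in knockout cells and 0.77 (SE 0.04, edgeR adjusted p = 4.8e-21) in wild-type cells. In the deposited TPM with the third untreated knockout column left out, the 4 h change in knockout cells was 0.2, of the other sign.

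DANCR, a noncoding RNA that carries SNORA26, was also low at 4 h and high at 24 h. It had 46.4, 48.2 and 44.8 CPM in 4 h knockout libraries and 111, 111 and 119.7 CPM in 24 h ones, against 57.3, 53.3 and 52.0 CPM untreated. In wild-type cells it had 48.9, 50.2 and 51.2 CPM at 4 h and 92.1, 93.2 and 94.7 CPM at 24 h, against 54.7, 54.4 and 56.3 CPM untreated. The 24 h change was 1.08 (SE 0.05, edgeR adjusted p = 1.8e-23) in knockout cells and 0.76 (SE 0.05, edgeR adjusted p = 5.3e-18) in wild-type cells. The 4 h change was -0.21 (SE 0.05, edgeR adjusted p = 0.0014) in knockout cells and -0.14 (SE 0.05, edgeR adjusted p = 0.033) in wild-type cells. The wild-type 4 h call ended without untreated library 1 or 3 and without 4 h library 1 or 2 (adjusted p of 0.051 to 0.12), and the value was 0.02 in TPM.

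SNHG6, SNHG9, SNHG3 and SNHG16 were also higher at 24 h in both genotypes. SNHG6, the host of SNORD87, changed by 1.07 (SE 0.06) in knockout cells and 0.73 (SE 0.06) in wild-type cells on the log2 scale. SNHG3, which holds SNORA73A and SNORA73B, changed by 1.02 (SE 0.05) in knockout cells and 0.62 (SE 0.05) in wild-type cells, and SNHG16, which holds 3 SNORD1 snoRNAs, by 0.84 (SE 0.04) in knockout cells and 0.64 (SE 0.04) in wild-type cells. SNHG9 was at only 6.17 CPM at 24 h in knockout cells and 4.67 CPM in wild-type cells, with changes of 1.40 (SE 0.18) in knockout cells and 1.16 (SE 0.19) in wild-type cells. SNHG4 changed by 0.66 (SE 0.09) in knockout cells and 0.26 (SE 0.09) in wild-type cells, after being lower at 2 h by -0.38 (SE 0.10) in knockout cells and -0.28 (SE 0.09) in wild-type cells. The 24 h call of SNHG4 in wild-type cells ended in TPM (0.18, adjusted p of 0.14 to 0.41). Its 2 h value in knockout cells was 0 in TPM with a pseudocount of 0.1, and that call ended without 2 h library 2 (adjusted p = 0.085). In wild-type cells it ended without untreated library 1, 2 h library 1 or 2 h library 2 (adjusted p of 0.052 to 0.13).

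SNHG18, SNHG14 and MIR17HG were lower at 24 h in both genotypes. SNHG14 is the long transcript of the imprinted region on chromosome 15 that carries the SNORD115 and SNORD116 clusters. It had 36.2, 35.1 and 32.8 CPM in 24 h knockout libraries against 66.3, 58.5 and 62.6 CPM untreated, and 34.5, 36.4 and 32.8 CPM in 24 h wild-type libraries against 63.3, 74.5 and 71.2 CPM untreated. It was already lower at 2 h, by -0.28 (SE 0.06) in knockout cells and -0.30 (SE 0.06) in wild-type cells, although both 2 h calls ended in TPM (-0.24 in knockout cells and -0.16 in wild-type cells with a pseudocount of 1). Its 24 h change was -0.85 (SE 0.06, edgeR adjusted p = 1.6e-15) in knockout cells and -1 (SE 0.06, edgeR adjusted p = 8.8e-18) in wild-type cells.

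SNHG18, the host of SNORD123, fell to 1.06, 1.37 and 1.81 CPM in 24 h knockout libraries, against 6.34, 7.21 and 6.40 CPM untreated. In wild-type cells it fell to 1.38, 1.27 and 1.17 CPM at 24 h, against 3.89, 7.09 and 6.32 CPM untreated. The log2 change of -2.19 (SE 0.23, edgeR adjusted p = 4.1e-11) in knockout cells and -2.14 (SE 0.25, edgeR adjusted p = 4.9e-10) in wild-type cells rests on few reads. MIR17HG averaged 2.54 CPM in 24 h knockout cells against 4.81 CPM untreated, and 2.32 CPM in 24 h wild-type cells against 4.33 CPM untreated, with log2 changes of -0.90 (SE 0.22) in knockout cells and -0.88 (SE 0.24) in wild-type cells. Both calls ended in TPM with either pseudocount, 1 or 0.1 (adjusted p of 0.11 to 0.17). Of the 8 host genes with a leading pyrimidine run in RefSeq, SNHG18 thus fell, SNHG19 did not pass the test at 24 h in either genotype with all libraries, and the other 6 rose in both. Of all 28 tested host genes, with or without such a run, 22 were higher in knockout cells and 21 in wild-type cells at 24 h.

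SNHG19 carries SNORD60. It had 26.1, 25.7 and 28.6 CPM in 24 h knockout libraries against 22.6, 22.6 and 26.9 CPM untreated (log2 change 0.15, SE 0.08, edgeR adjusted p = 0.094), and 26.1, 26.8 and 24.5 CPM in 24 h wild-type libraries against 27.1, 28.6 and 31.3 CPM untreated (-0.16, SE 0.08, edgeR adjusted p = 0.055). Without untreated knockout library 3 its 24 h change in knockout cells was called (0.25, adjusted p = 0.011), as was that in wild-type cells without untreated library 1 (-0.22, adjusted p = 0.022), with a replicate block (-0.16, adjusted p = 0.043) and in TPM with the third untreated knockout column left out (-0.18, adjusted p = 0.046). It was lower in wild-type cells at 8 h (-0.33, SE 0.08, edgeR adjusted p = 0.00033) and at 16 h (-0.3, SE 0.07, edgeR adjusted p = 0.00048). SNHG25 did not pass the test at 24 h in either genotype (log2 change 0.52, SE 0.27, in knockout cells and 0.15, SE 0.25, in wild-type cells), although the knockout change was called without 24 h library 1 (0.63, adjusted p = 0.049). The deposited tables differ for SNHG25 in wild-type cells. It had 2.22 CPM at 24 h and 2.04 CPM untreated, but 84.2 ± 9.66 TPM at 24 h and 45.2 ± 5.69 TPM untreated (SD, n = 3). Its change from 8 to 24 h in knockout cells, 0.80, was -0.13 in TPM. SNHG10, SNHG20 and SNHG21 were called at 24 h in 1 genotype each: SNHG20 (0.42, SE 0.11) and SNHG21 (0.66, SE 0.19) in knockout cells and SNHG10 (0.51, SE 0.20) in wild-type cells. SNHG21 was also called in wild-type cells without 24 h library 1 (0.52, adjusted p = 0.016, against 0.36 with all libraries), and its knockout call ended in TPM (0.34 to 0.42, adjusted p of 0.051 to 0.12). None of these 3 was called in the difference between genotypes at 24 h.

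Levels can be compared between genes only per length, in the deposited TPM. RACK1 was the most abundant host mRNA in wild-type cells, with 2145 ± 9.37 TPM at 24 h and 1554 ± 11.9 TPM untreated (SD, n = 3). GAS5 followed with 1473 ± 5.5 TPM at 24 h and 289 ± 7.82 TPM untreated, and ZFAS1 had 807 ± 2.54 TPM at 24 h and 146 ± 6.3 TPM untreated. TPM of untreated knockout cells were not used for levels, because those 3 columns were the only ones of the 36 that did not match their own count column best.

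Untreated knockout cells had lower levels than untreated wild-type cells for 7 host genes, and the other 21 were not called (23.5% of all tested genes were called, 11.9% as lower). The clearest was RACK1, with 429, 449 and 441 CPM in untreated knockout libraries against 678, 671 and 689 CPM in untreated wild-type libraries, a log2 difference of -0.63 (SE 0.03, edgeR adjusted p = 2.5e-22). The others were SNHG19 at -0.26 (SE 0.08), SNHG15 at -0.24 (SE 0.06), SNHG8 at -0.21 (SE 0.08), SNHG1 at -0.18 (SE 0.06), SNHG16 at -0.15 (SE 0.04) and SNHG14 at -0.15 (SE 0.06). The count was 4 without untreated wild-type library 1, 4 without untreated knockout library 3 and 4 in TPM, while the calls of RACK1 and SNHG15 held without each library. In GAS5 the untreated levels did not pass the test, with a log2 difference of -0.05 (SE 0.05).

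RACK1 stayed lower in knockout cells at the end of the course. It had 585, 590.2 and 634 CPM in 24 h knockout libraries and 1021, 1016 and 1029 CPM in 24 h wild-type libraries, with no overlap at either time. Its rise was smaller in knockout cells, 0.46 (SE 0.03, edgeR adjusted p = 4.3e-19) against 0.59 (SE 0.03, edgeR adjusted p = 2.3e-23) in wild-type cells.

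The change under dimerizer was then set against that of wild-type cells at each time. At 2 h, 0 host genes differed in edgeR's test (0.299% of all genes), 0 had an unadjusted p under 0.05 (7.5% of all genes), and DESeq2 called 0. At 4 h only ZFAS1 differed (3.28% of all genes), with a knockout change smaller by 0.34 on the log2 scale (-0.34, SE 0.09, edgeR adjusted p = 0.016). Its 4 h levels were 71.6, 75.8 and 75.0 CPM in knockout libraries and 83.1, 85.8 and 87.8 CPM in wild-type libraries. That call ended without 4 h knockout library 1 (-0.31, adjusted p = 0.059) and in TPM. At 8 h the knockout change was higher on the log2 scale for 8 host genes and lower for 1, SNHG14 (18.3% of all genes called). SNHG14 fell further in knockout cells, from 62.4 CPM untreated to 29.8 CPM at 8 h, against 69.7 and 39.6 CPM in wild-type cells. The 8 were SNHG12, SNHG15, SNHG17, SNHG1, SNHG16, SNHG6, SNHG8 and GAS5. At 16 h it was 14 higher and 2 lower (27.7%), and at 24 h 14 and 2 (29.8%).

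At 24 h the larger knockout changes ran from 0.20 for SNHG16 and TAF1D to 0.55 for SNHG11 on the log2 scale, and the median of the difference over all 28 host genes was 0.27 beside 0.05 over all tested genes. SNHG7 differed by 0.51 (SE 0.10, edgeR adjusted p = 4.6e-05), with 75.2, 77.8 and 85.0 CPM in 24 h knockout libraries and 62.7, 64.5 and 59.9 CPM in 24 h wild-type libraries. Its untreated libraries had 20.5, 20.6 and 22.0 CPM in knockout cells and 23.2, 23.7 and 24.1 CPM in wild-type cells, so the order of the genotypes was opposite at the 2 times. SNHG3 differed by 0.39 (SE 0.07, edgeR adjusted p = 6e-06), with 131, 135 and 131 CPM in knockout libraries and 106, 115 and 109.7 CPM in wild-type libraries at 24 h. SNHG1 and SNHG15 each differed by 0.37 (SE 0.08, edgeR adjusted p = 0.00017 and 0.00021) and DANCR by 0.32 (SE 0.07, edgeR adjusted p = 0.00018).

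SNHG11, SNHG12, SNHG5, SNHG6, SNHG17, SNHG19 and SNHG4 were the remaining noncoding genes with a larger 24 h change in knockout cells. The untreated level enters every such difference. Over the 28 host genes the untreated log2 difference, knockout minus wild type, had a median of -0.14 and ran from -0.63 to 0.23. For SNHG1, SNHG15, SNHG16 and SNHG19 the untreated level was called lower in knockout cells. SNHG17 was not called untreated, yet averaged 21.7 CPM in knockout cells and 24.4 CPM in wild-type cells. At 24 h its means were 68 CPM in knockout cells and 62.3 CPM in wild-type cells. SNHG16 averaged 160 CPM in knockout cells and 155 CPM in wild-type cells at 24 h, beside 89.5 CPM in knockout cells and 99.2 CPM in wild-type cells untreated. SNHG19 averaged 26.8 CPM in knockout cells and 25.8 CPM in wild-type cells at 24 h, beside 24 CPM in knockout cells and 29 CPM in wild-type cells untreated. EPB41L4A-AS1 went the other way, with a difference of -0.36 (SE 0.11, edgeR adjusted p = 0.011), as did RACK1 with -0.13 (SE 0.04, edgeR adjusted p = 0.0045). GAS5, the host gene with the largest number of reads among the strong risers, differed by 0.02 (SE 0.06) and ZFAS1 by 0.06 (SE 0.08) at 24 h. The GAS5 difference was called at 8 h, at 0.19. That call ended in TPM (0.22, limma adjusted p = 0.15) and without any of several single libraries, such as untreated wild-type library 1 (0.17, edgeR adjusted p = 0.11).

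The number of differing genes depended on single libraries at 8 h and on the table at 8, 16 and 24 h. At 8 h it was 9 with all libraries, 3 without untreated wild-type library 1, 5 without 8 h wild-type library 2 and 4 without untreated knockout library 1. At 24 h the 16 calls became 5 in TPM with a pseudocount of 1, and 6 when the third untreated knockout column was also left out. The share of all genes called in TPM was not counted, so this fall may not be particular to host genes. The calls of SNHG11, SNHG15 and RACK1 held in all 3 TPM settings, and the calls of EPB41L4A-AS1 (-0.32, adjusted p = 0.058, without untreated knockout library 3), TAF1D (0.14, adjusted p = 0.053, without 24 h knockout library 3), SNHG19 and SNHG4 ended without 1 library. For SNHG19 that was untreated knockout library 1 or 2, 24 h knockout library 3, untreated wild-type library 3 or 24 h wild-type library 1 or 3 (adjusted p of 0.052 to 0.13). For SNHG4 it was 24 h knockout library 2, untreated wild-type library 1 or 24 h wild-type library 1 (adjusted p of 0.051 to 0.12).

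**Figure D3:**
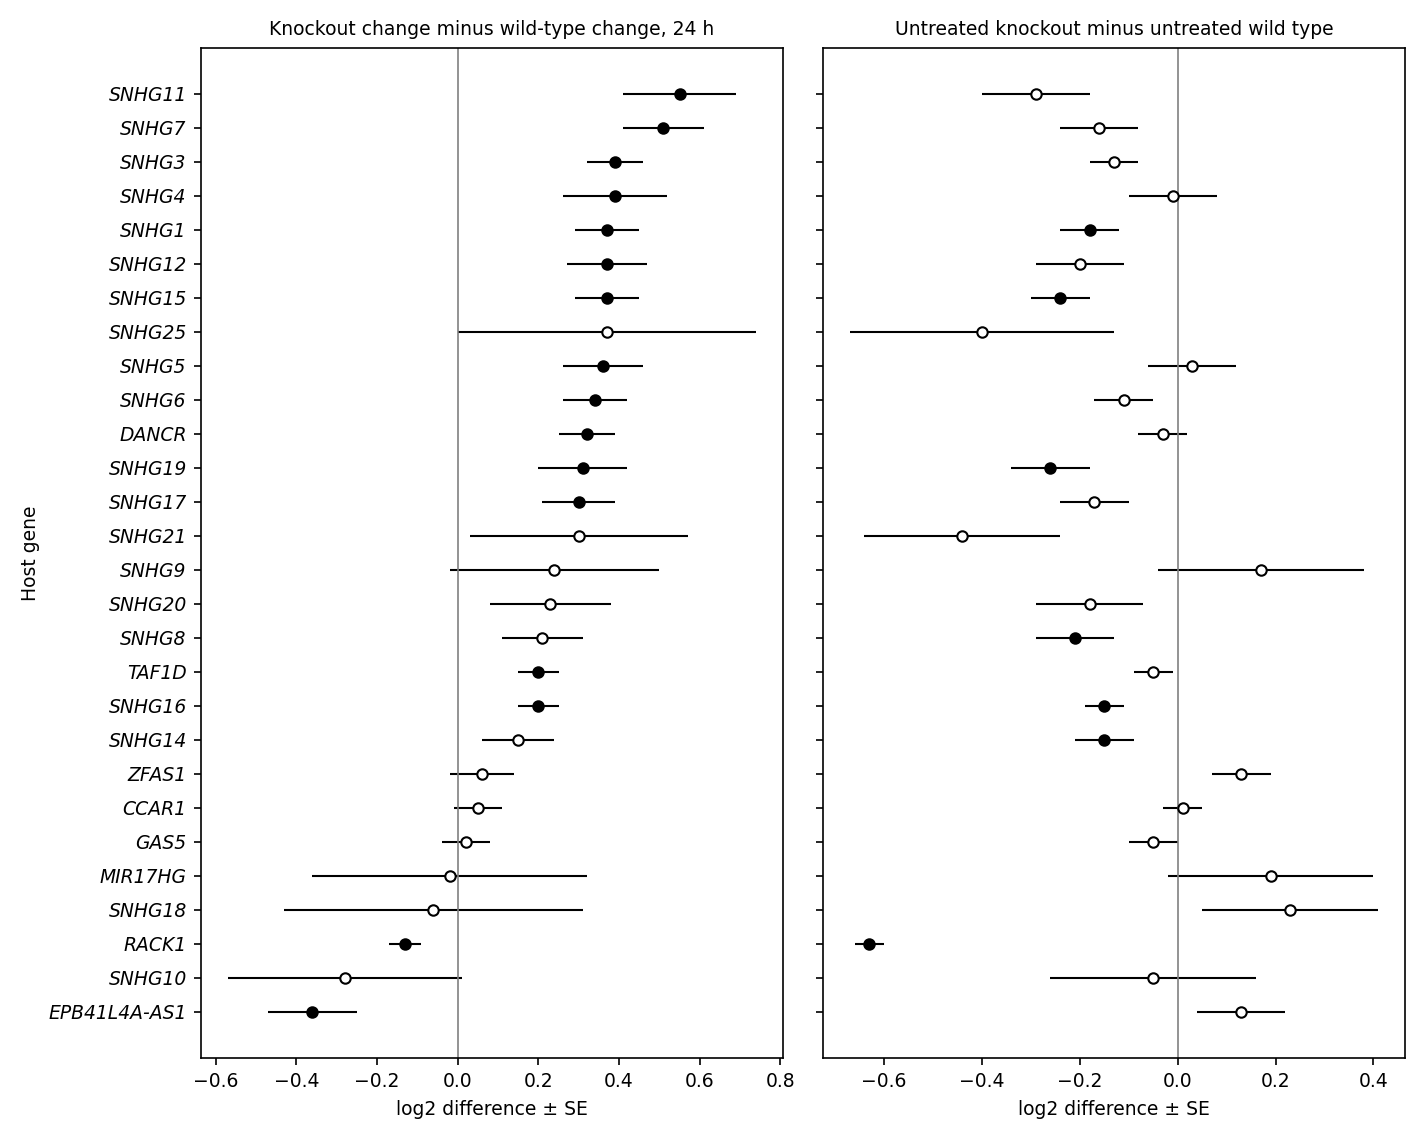
Left, the 24 h log2 change in knockout cells minus that in wild-type cells for each host gene with its SE; right, the log2 difference of untreated knockout from untreated wild-type cells. Filled points have an edgeR adjusted p under 0.05; 14 filled points lie right of 0 and 2 (RACK1 and EPB41L4A-AS1) left of it in the left panel, and all 7 filled points lie left of 0 in the right panel.

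Genes that work with the same RNAs were counted from 4 lists, chosen with earlier results of these data known. All 18 proteins and assembly factors of snoRNA particles were higher at 24 h in both genotypes, with a median log2 change of 0.93 in knockout cells and 0.63 in wild-type cells, where 32.4% of all tested genes were called higher in knockout cells and 33.0% in wild-type cells. DKC1, the pseudouridine synthase of H/ACA particles, changed by 1.61 (SE 0.04) in knockout cells and 1.39 (SE 0.04) in wild-type cells, and FBL, the methyltransferase of C/D particles, by 1.04 (SE 0.04) in knockout cells and 0.95 (SE 0.04) in wild-type cells. NOP56, a C/D core protein that also hosts snoRNAs, changed by 1.02 (SE 0.03) in knockout cells and 0.72 (SE 0.03) in wild-type cells. At 2 h in wild-type cells COIL, the scaffold of Cajal bodies, was higher (0.25, SE 0.06) and PIH1D1, an assembly factor, was lower (-0.20, SE 0.06).

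Of 14 nonsense-mediated decay factors, 13 were higher and 1 lower at 24 h in knockout cells (median 0.61), and 13 higher and 1 not called in wild-type cells (median 0.47), beside the same 32.4% of all tested genes called higher in knockout cells and 33.0% in wild-type cells. SMG5, which acts in the decay step, changed by 0.80 (SE 0.03) in knockout cells and 0.50 (SE 0.03) in wild-type cells. SMG8, a regulator of the kinase SMG1, was the lower one in knockout cells (-0.20, SE 0.07).

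Of 24 other protein-coding snoRNA hosts, 21 were higher and 1 lower at 24 h in each genotype, with medians of 0.42 in knockout cells and 0.40 in wild-type cells (all tested genes: 32.4% higher in knockout cells and 33.0% in wild-type cells). HSPA9, the mitochondrial chaperone mortalin, changed by 1.04 (SE 0.03) in knockout cells and 1.36 (SE 0.03) in wild-type cells. NCL, the nucleolar protein nucleolin, changed by 1.05 (SE 0.03) in knockout cells and 0.68 (SE 0.03) in wild-type cells. HSPA8, the constitutive cytosolic chaperone, was lower at 24 h, by -0.16 (SE 0.03) in knockout cells and -0.67 (SE 0.03) in wild-type cells, and at 2 h by -0.64 (SE 0.03) in knockout cells and -0.68 (SE 0.03) in wild-type cells.

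A translation list held 15 genes, mostly translation factors, chosen as having mRNAs that begin with an oligopyrimidine tract, which was not checked. Of these, 9 were higher and 4 lower at 24 h in knockout cells (median 0.09), and 10 higher and 3 lower in wild-type cells (median 0.17). Of all tested genes, 32.4% were higher and 33.0% lower in knockout cells, and 33.0% higher and 32.4% lower in wild-type cells. NPM1, the nucleolar chaperone nucleophosmin, changed by 0.89 (SE 0.03) in knockout cells and 0.69 (SE 0.03) in wild-type cells, while EEF1A1, the elongation factor that brings tRNA to the ribosome, changed by -0.09 (SE 0.02) in knockout cells and -0.05 (SE 0.02) in wild-type cells. NOP56, NOP58 and DKC1 are in both the particle and the coding host list, and EEF1B2, EEF2 and TPT1 in both the coding host and the translation list.

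**Figure D4:**
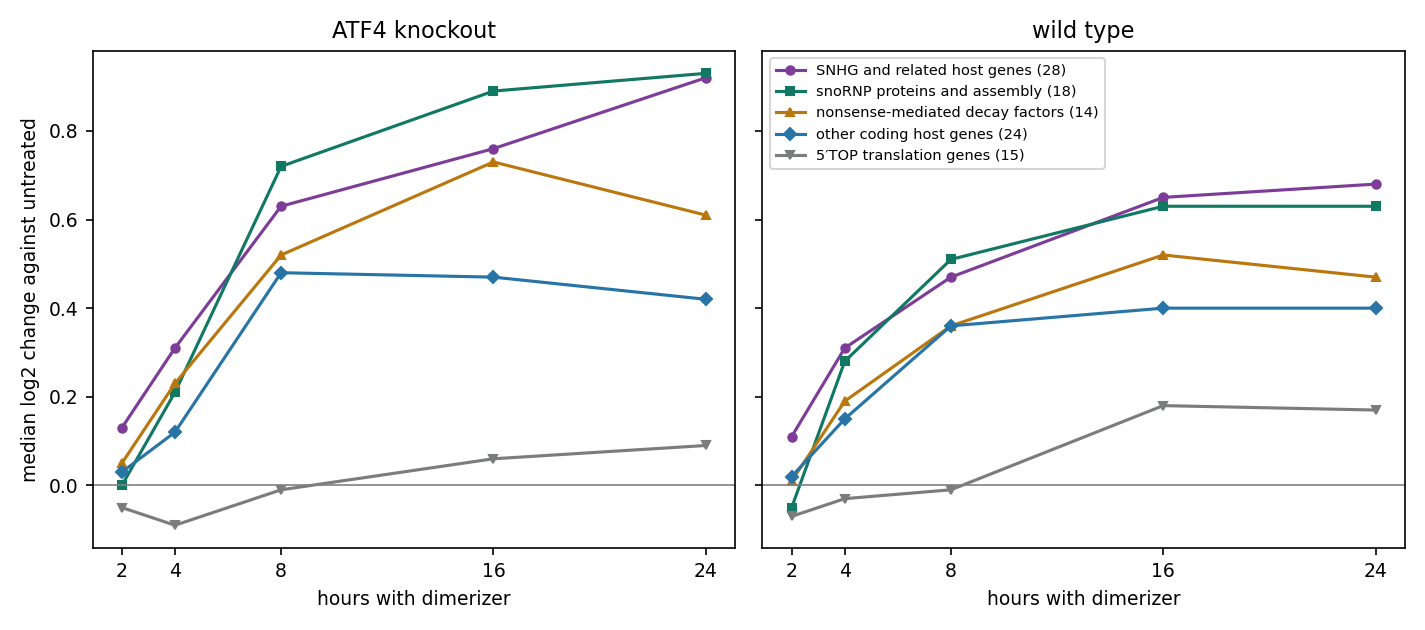
Median log2 change against untreated cells of the same genotype over hours with dimerizer for the 28 host genes and 4 lists of related genes (number tested in brackets), knockout left and wild type right. At 24 h the host genes stand at 0.92 in knockout cells and 0.68 in wild-type cells, and the translation list at 0.09 in knockout cells and 0.17 in wild-type cells.

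The snoRNAs themselves were hardly seen. Rows named SNORD or SNORA plus a number with any count numbered 409 and held 0.0045% of all counts, 21 of them could be tested and 0 averaged 10 CPM or more. At 24 h, 10 of the 21 were called higher and 0 lower in knockout cells (32.4% of all tested genes were higher). In wild-type cells 7 were called higher and 0 lower (33.0% of all tested genes were higher). SNORD104, in SNHG25, was the most abundant at 6.61 CPM over all libraries. It changed at 24 h by 0.74 (SE 0.14, edgeR adjusted p = 1.2e-05) in knockout cells and 0.92 (SE 0.14, edgeR adjusted p = 1.8e-07) in wild-type cells. SNORA26, in DANCR, changed by 1.25 (SE 0.32) in knockout cells and 1.16 (SE 0.33) in wild-type cells, and SNORA73B, in SNHG3, by 1.26 (SE 0.31) in knockout cells and 1.24 (SE 0.31) in wild-type cells. SNORA71B, in SNHG17, was not called although its host rose, at -0.29 (SE 0.38) in knockout cells and -0.8 (SE 0.37) in wild-type cells. Since these bodies lie inside the introns of their hosts, a count on such a row does not say whether the RNA was still part of the host transcript.

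Annotated exons of several hosts overlap other genes. The shared part of the exon bases was 72.9% for SNHG21, with AC105339.2 on its own strand, 30.6% for SNHG16, 29.3% for SNHG6 and 25.2% for SNHG7, each with a gene on the other strand, and 11.1% for ZFAS1 with ZNFX1. SNHG4 shares 14% with MATR3 and SNHG3 shares 5.9% with RCC1 on their own strands. Reads of such pairs may be split between the genes, so values of these hosts are uncertain to that extent.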

How the data were processed

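The authors deposited 2 gene tables over the 36 libraries, expected counts and TPM, per the labels. Per the submitters' processing notes, reads were checked with FastQC 0.11.5 and quantified with Salmon 0.9.1 on GRCh38. Libraries were directional per the labels' protocols, while no source used here gives the annotation release, the strand setting or the step from transcripts to genes. The deposited expected counts were rounded, filtered with filterByExpr by group, TMM-scaled and fitted for 12 group means with the quasi-likelihood test of edgeR 4.0.16 (R 4.3.3). The Benjamini-Hochberg adjustment ran over 19043 genes in each of 18 contrasts, with calls made below 0.05. CPM are on the TMM-scaled library size. The deposited TPM served as an alternative (limma 3.58.1) and for levels between genes. For 33 of 36 libraries the count column matched its own TPM column best, and the exceptions were the 3 untreated knockout libraries. Their correlations with their own TPM columns were 0.914, 0.934 and 0.497, and with the best-matching columns 0.919, 0.96 and 0.966. The third TPM column thus stood far from its count column. It was left out in 1 TPM setting and kept in the others, so knockout values in those settings include it. The scripts were tested on simulated data.

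Members and lists were chosen with earlier results of these data known. The naming rule took the 8 genes given by name, SNHG genes averaging 10 CPM or more, and the 3 highest and 3 lowest changes at 2, 8 and 24 h in each genotype. It also took the 5 genes with the smallest adjusted p of the difference at 8 and 24 h. It gave 25 genes, for which leaving out single libraries was also run. SNHG9, SNHG10, SNHG20, SNHG22 and SNHG23 were named, after their values were seen, so that every member is accounted for. From each list at most 3 genes per direction were named. Results of some items are not reported here. Alternatives were RLE scaling, no filter, a replicate block, fits on the groups of a contrast alone, DESeq2 1.42.0, limma on TPM and leaving out each library. Gene positions are from GENCODE 29 and snoRNA positions and starts from RefSeq (GRCh38.p14).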

Additional observations from a re-analysis of the deposited data

Results flagged for a closer look

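The host genes below changed by a different amount in knockout than in wild-type cells by edgeR's test of the difference between the changes (knockout minus wild type, log2, adjusted p under 0.05). Given here are the 5 with the smallest adjusted p at 8 and at 24 h and every gene with a negative difference.

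At 4 h, ZFAS1 differed by -0.34. At 8 h, SNHG12 differed by 0.39, SNHG15 by 0.32, SNHG17 by 0.29, SNHG1 by 0.24 and SNHG16 by 0.17, while SNHG14 differed by -0.26. The SNHG14 value is a deeper fall in knockout cells. Of these 8 h calls, SNHG15 and SNHG12 held without each single library, and the others ended without at least 1 library. At 16 h, EPB41L4A-AS1 differed by -0.38 and RACK1 by -0.16, and the EPB41L4A-AS1 call ended without untreated knockout library 3 (-0.33, adjusted p = 0.053). At 24 h, SNHG7 differed by 0.51, SNHG3 by 0.39, SNHG1 and SNHG15 by 0.37 each and DANCR by 0.32, while EPB41L4A-AS1 differed by -0.36 (-0.32, adjusted p = 0.058, without that library) and RACK1 by -0.13. With 3 libraries a group, single samples were not tested for standing apart within a group.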

How the results depend on the processing

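Of the 28 tested host genes, the number called in each of the 10 comparisons with untreated cells stayed within 1.5 times under every alternative run, with the leave-one-out counts at 24 h running from 25 to 26 in knockout cells and from 23 to 25 in wild-type cells. The calls of the difference between genotypes were less stable. In TPM with a pseudocount of 1, or of 0.1, the number called fell to 0 at 4 h (1 in the counts), to 1 at 8 h (9 in the counts), to 6 at 16 h (16 in the counts), to 5 at 24 h (16 in the counts) and to 4 between untreated cells (7 in the counts). With the third untreated knockout TPM column left out it was 3 at 8 h, 7 at 16 h and 6 at 24 h. Leaving out 1 library gave 0 to 1 at 4 h, 3 to 9 at 8 h, 11 to 16 at 16 h, 14 to 17 at 24 h and 4 to 7 between untreated cells. The share of all genes called was not counted in the TPM or leave-one-out fits, so these falls may not be particular to host genes. The cause was not tested.

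The direction turned only in TPM. DANCR at 4 h in wild-type cells was 0.02 with either pseudocount and with that column left out (-0.14 in the counts). SNHG4 at 2 h in knockout cells was 0 with a pseudocount of 0.1 (-0.38). CCAR1 at 4 h in knockout cells was 0.2 with the column left out (-0.16). The SNHG3 difference at 16 h was -0.11 with either pseudocount (0.2), and SNHG25 from 8 to 24 h in knockout cells was -0.13 in each TPM setting (0.8).

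Of the calls of named genes, leaving out 1 library ended 11 of 195 in the courses, 5 of 7 between untreated cells, 19 of 41 in the difference and 10 of 39 between 24 and 8 h. Labels number the replicates in each group, but the numbers did not pair the libraries. Same-number correlations of deviations ran from -0.07 to 0.07, and 20 of 36 libraries were closest to their own number. With the number as a replicate block, 28 host genes gave 25 calls at 24 h in knockout cells and 25 in wild-type cells, 16 for the difference, and no count of calls moved by over 1.5 times. With totals of 8608783 counts or more, host genes under about 5 CPM (SNHG9, SNHG10, SNHG18, SNHG21, SNHG25, MIR17HG) rest on few reads.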
